A study of Homo sapiens with 27 samples.

Results

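Tandem 3′ ends are here neighbouring 3′-seq peaks on the same strand whose 3′ edges lie 100 to 3000 bases apart. In 27 3′-seq libraries of human lung cancer cells, 1692 such pairs were found among 4267 neighbouring pairs of ends 100 to 50000 bases apart. They were chosen by merging those of the authors' peaks that shared any base on the same strand, keeping the 9910 autosomal peaks listed in all 27 libraries out of 233020 merged peaks, and taking each kept peak whose next kept peak downstream had its 3′ edge within that distance. The 1692 pairs were built from 3012 distinct ends, 30.4% of the kept peaks. The listing of both ends in every library chose the pairs, so an end that vanished in any library is not among them. The ratio of the upstream to the downstream end between groups was not used in the choice.

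The study compared cisplatin-treated with mock-treated cells, and cisplatin-resistant with sensitive cells. All cells were from non-small cell lung cancer lines, and each of the 9 groups had 3 libraries. RNA of whole H358 cells was taken after cisplatin at 100 µM, oxaliplatin at 100 µM, or the vehicle DMSO. Cytosolic RNA of A549R cells, RNA of heavy polysomes of A549 cells (mRNA loaded with several ribosomes) and cytosolic RNA of A549 cells were each taken after cisplatin at 100 µM or DMSO. The labels do not give the treatment time, how A549R was derived or whether it is 1 clone, nor whether replicates were separate cultures. P-values therefore measure the spread between these libraries, which may be technical.

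Cleavage and polyadenylation can take place at several sites of a gene. Where such sites lie close together in a terminal exon, use of the upstream (proximal) site gives an mRNA with a shorter 3′ untranslated region and the same protein, and use of the downstream (distal) site gives the longer form, which can carry further binding sites for microRNAs and RNA-binding proteins. Close sites can also lie in an intron and the exon after it, or in 2 genes that follow each other on a strand. No annotation of the build was used here, so ends are given by position (hg19, counted from 1), and their gene, exon or untranslated region is not stated. Whether each peak marks a separate polyadenylation site was not tested. In 250 pairs the gap between the 2 peaks was under 100 bases.

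The libraries held 3024814 to 11997535 counts, and the ends of the tandem pairs took 14.6% to 28.4% of each library's counts. The peak lists were of 2 kinds: 16 lists held 73.1% to 79.4% of their own peak numbers and 11 held 30.6% to 42.3%. The 11 short lists were the 3 of oxaliplatin-treated H358 cells, the 6 of A549 cytosol, and replicate 3 of both polysome groups. The kind of list therefore cannot be told apart from oxaliplatin against DMSO, cisplatin against oxaliplatin, and A549R against A549 cytosol. It differed for 4 of the 6 polysome libraries against cytosol, and did not differ within a line and fraction between cisplatin and DMSO.

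The distance between the 3′ edges of a tandem pair had a median of 1138.5 bases, with quartiles of 727 and 1754.5 bases. In all, 163 pairs were at most 500 bases apart, 562 were 501 to 1000 bases apart, 656 were 1001 to 2000 bases apart and 311 were 2001 to 3000 bases apart. The smallest distance was 147 bases, between chr10:69553672-69553888 and chr10:69553936-69554035 on the plus strand. The farthest pairs inside the limit were 3000, 2994 and 2992 bases apart, and the next pairs beyond it 3003, 3017 and 3027 bases apart. The spread of the ratio over the 9 groups (highest minus lowest group mean, log2) was 1.36, 4.10 and 1.03 for those 3 inside pairs, and 1.67, 2.01 and 1.99 for those 3 outside.

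No other merged peak, listed in any number of libraries, lay between the ends in 1022 pairs (60.4%), against 7.57% of the 2575 distant pairs over 3000 and up to 50000 bases apart. Pairs could share an end. They formed 1320 chains, of which 1039 had 2 ends, 219 had 3 ends, 44 had 4 ends and 18 had 5 or more. The longest chain had 10 ends and began at chr2:232327898-232328065 on the minus strand. Pairs of 1 chain are not independent of each other.

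Which end was the stronger varied with the spacing. Averaged over all libraries, the upstream end was stronger in 55.2% of pairs up to 500 bases apart, 49.3% at 501 to 1000 bases, 42.2% at 1001 to 2000 bases and 36.3% at 2001 to 3000 bases. The median log2 ratio of upstream to downstream counts was 0.27, -0.02, -0.38 and -0.63 in the same 4 classes. Among distant pairs it was -0.94 over 3000 and up to 10000 bases and -0.18 at 10001 to 50000 bases. Closer tandem ends were thus more often stronger upstream, and wider ones more often stronger downstream.

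**Figure D1:**
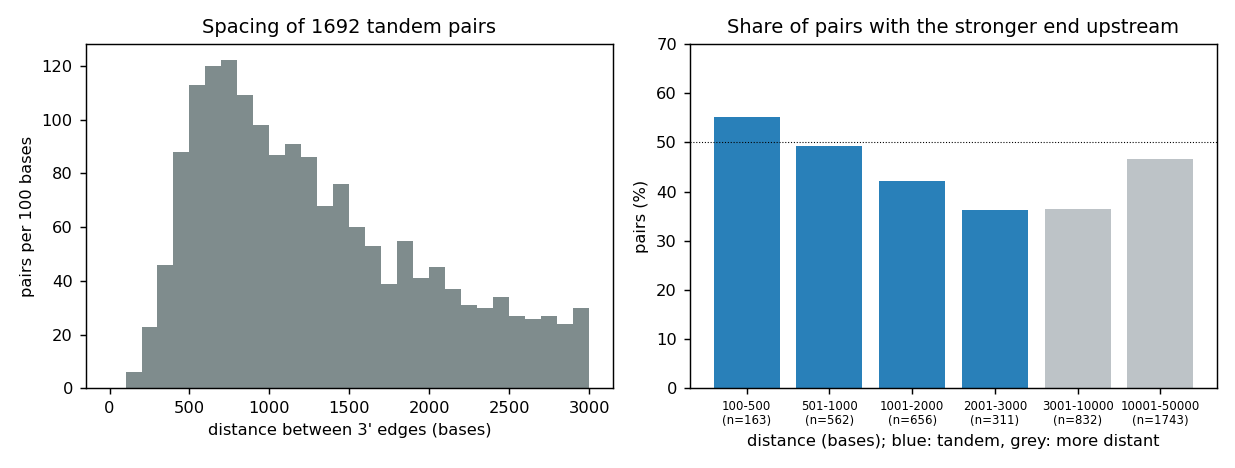
Left, the number of tandem pairs per 100 bases of distance between 3′ edges; right, the percentage of pairs whose upstream end was the stronger by its mean over 27 libraries, in blue for tandem and in grey for more distant pairs. The share falls from 55.2% in the closest class to 36.3% in the widest tandem class, with the dotted line at 50%.

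In 520 pairs the upstream end was the stronger in all 9 groups, in 698 the downstream end was, and in 474 the stronger end differed between groups. The spread of the ratio over the 9 groups had a median of 1.26 log2 units in tandem pairs, against 1.94 in distant pairs. It was below 1 in 541 tandem pairs and at least 2 in 332. The median standard deviation among replicates was 0.40 log2 units. By group means most tandem pairs thus kept their stronger end across lines, fractions and drugs. By single libraries the upstream end was the stronger in all 27 in 387 pairs, and the downstream end in 564.

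The most abundant pair was very unequal. It had the highest summed CPM and lay at chr19:49469024-49469178 and chr19:49469528-49470268 on the plus strand, with a mean log2 ratio between -10.00 in polysomes with DMSO and -8.96 in H358 cells with DMSO. The widest spread over groups, 6.59, was that of chr17:22023645-22023870 and chr17:22023935-22024064 on the plus strand, 194 bases apart. There the upstream end took 61.2%, 48.1% and 68.6% of the pair's counts in H358 cells with cisplatin and 62.6%, 60.4% and 85.9% in H358 cells with DMSO, but 5.08%, 9.87% and 6.34% in A549R cytosol with cisplatin and 5.75%, 5.73% and 9.99% in A549R cytosol with DMSO. Polysomes had 1.75%, 2.36% and 3.86% with cisplatin, and A549 cytosol had 2.55%, 2.65% and 3.35% with cisplatin. The H358 libraries given here did not overlap with any of the others given. The pair was chosen for the widest spread over groups, so this lack of overlap is not a result. The line and the whole-cell extract cannot be told apart in that difference, since H358 was measured only as whole cells.

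The first question was whether cisplatin moved the balance of tandem ends. In each library the median log2 ratio over all 1692 pairs was below 0. It averaged -0.21 ± 0.06 in H358 cells with cisplatin and -0.26 ± 0.03 with DMSO, -0.28 ± 0.10 in A549R cytosol with cisplatin and -0.31 ± 0.03 with DMSO, -0.36 ± 0.02 in polysomes with cisplatin and -0.40 ± 0.08 with DMSO, and -0.20 ± 0.04 in A549 cytosol with cisplatin and -0.31 ± 0.07 with DMSO (SD, n = 3 each). The difference was positive in each of these 4 settings, but cisplatin and DMSO libraries overlapped in every one, with exact two-sided permutation p-values of 0.30, 0.70, 0.40 and 0.20 in that order. Adjusted over 10 comparisons they were 0.50, 0.88, 0.57 and 0.50. With 3 libraries against 3 the smallest p possible is 0.10. In A549 cytosol, where same-numbered libraries deviated together, all 3 same-numbered differences were positive, with medians of -0.17, -0.25 and -0.18 with cisplatin and -0.23, -0.38 and -0.32 with DMSO in replicates 1, 2 and 3 (exact sign-flip permutation p = 0.25, the smallest that 3 pairs of libraries allow). In polysomes, where they also deviated together, 2 of the 3 differences were positive (exact sign-flip permutation p = 0.50).

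Each library's tandem median was then set beside the median of its own distant pairs. The tandem median minus the distant median was 0.40 ± 0.03 in H358 cells with cisplatin and 0.22 ± 0.03 with DMSO. It was 0.02 ± 0.03 in polysomes with cisplatin and -0.07 ± 0.04 with DMSO, and 0.14 ± 0.03 in A549 cytosol with cisplatin and 0.01 ± 0.06 with DMSO (SD, n = 3 each). In these 3 settings all 3 cisplatin libraries lay above all 3 DMSO libraries, at the smallest possible exact permutation p of 0.10 (0.17 after adjustment over 10 comparisons). In A549R cytosol the values were 0.08 ± 0.07 with cisplatin and 0.05 ± 0.00 with DMSO, and the libraries overlapped (exact permutation p = 0.70). In H358 cells the distant median itself was lower with cisplatin, at -0.60 ± 0.03, than with DMSO, at -0.47 ± 0.05 (SD, n = 3 each). Oxaliplatin, with short lists against long ones, gave the same separation from DMSO in H358 cells, at 0.31 ± 0.02 (exact permutation p = 0.10, 0.17 after adjustment). Its tandem median, -0.26 ± 0.03, was that of DMSO, and its distant median was -0.57 ± 0.01 (SD, n = 3 each).

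**Figure D2:**
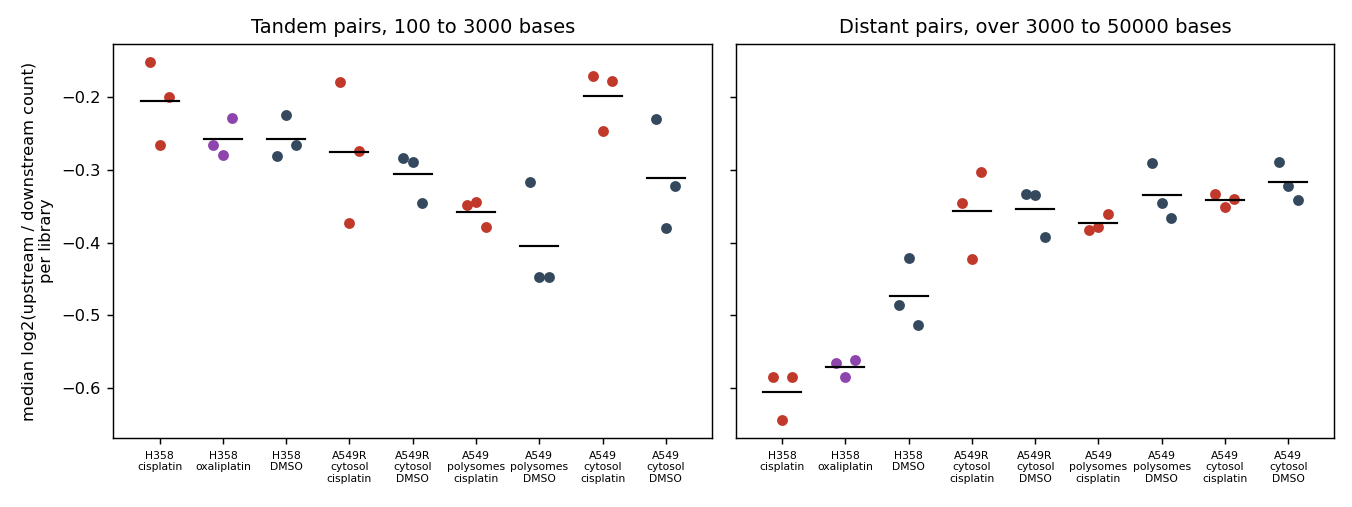
Median log2 ratio of upstream to downstream counts in each library (points) and the mean of the 3 libraries of each group (bars), for tandem pairs on the left and distant pairs on the right, with cisplatin in red, oxaliplatin in purple and DMSO in dark grey. In tandem pairs the cisplatin mean lies above the DMSO mean in every line and fraction, with overlapping libraries; in H358 cells the distant median is lower under both drugs.

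Single pairs were tested with a model of the 2 counts of a pair in each library, fitted over all 4267 neighbouring pairs with edgeR's quasi-likelihood test. A pair was called changed at a Benjamini-Hochberg adjusted p under 0.05, and a positive log2 change means that the upstream end gained on the downstream end. In H358 cells, cisplatin changed 91 of the 1692 tandem pairs, 61 toward the upstream end and 30 toward the downstream end. Over all pairs tested the background was 15.4%, with 7.62% up and 7.73% down. The called share was 5.38% of the tandem pairs and 21.9% of the distant pairs, and among the 2575 distant pairs 264 moved toward the upstream end and 300 toward the downstream end. The median log2 change was 0.03 over tandem pairs and -0.06 over distant pairs.

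At the level of single ends, 373 of the 3012 tandem ends rose and 329 fell in H358 cells with cisplatin (background 26% of 9910 ends, 12.5% up and 13.5% down). Single ends were scaled over the kept peaks and not over all counts. In H358 cells the kept peaks held 44.1%, 39.4% and 43.9% of all counts with cisplatin and 56.8%, 56.0% and 56.8% with DMSO. With oxaliplatin they held 74.8%, 72.1% and 75.4%. Rises and falls of single ends depend on this choice. Among the 61 pairs that moved upstream, 22 had an upstream end that rose beside a downstream end that was not called, 15 had a downstream end that fell beside an upstream end that was not called, 3 had both, and in 17 neither end passed its own test. The 30 pairs that moved downstream had a rising downstream end alone in 9 and a falling upstream end alone in 6. The stronger end of the pair switched in 23 of the 61 and in 7 of the 30. Both sides of the ratio thus contributed. None of the 61 was at most 500 bases apart, 19 were 501 to 1000, 28 were 1001 to 2000 and 14 were 2001 to 3000. Without DMSO replicate 2 the count of called pairs was 58.

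The pairs named for a comparison were required not to overlap between its groups, so their lack of overlap there is not a result. The largest gain of an upstream end in H358 cells was on chromosome 11 (upstream chr11:62559588-62559997, downstream chr11:62557718-62558388, minus strand, 1870 bases apart, no other merged peak between them). The upstream end had 336, 123 and 201 counts and the downstream end 449, 141 and 131 counts with cisplatin, against 209, 112 and 127 upstream and 1369, 1369 and 704 downstream with DMSO. The upstream end thus took 42.8%, 46.6% and 60.5% of the pair with cisplatin, and 13.2%, 7.56% and 15.3% with DMSO. The ratio rose by 2.91 ± 0.35 (log2, SE; edgeR adjusted p = 4.41e-05), the upstream end by 1.75 ± 0.30 and the downstream end fell by 1.1 ± 0.22. Oxaliplatin gave 8.23%, 7.63% and 14.0%, within the range of DMSO. In A549 cytosol the shares were 10.6%, 17.7% and 25.4% with cisplatin and 7.39%, 9.06% and 5.83% with DMSO, without overlap, at an adjusted p of 0.16 by edgeR.

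A chain of 3 ends on chromosome 14 held the next pair (upstream chr14:61441449-61441921, downstream chr14:61438986-61439202, minus strand, 2463 bases apart). Its upstream end took 81.4%, 87.7% and 86.2% with cisplatin and 39.1%, 54.5% and 38.2% with DMSO in H358 cells, at 8 to 105 counts per end with cisplatin. The ratio rose by 2.75 ± 0.41 (log2, SE; edgeR adjusted p = 2.26e-04). The same pair changed in A549R cytosol, where the shares were 66.4%, 79.3% and 60.4% with cisplatin and 42.3%, 50.0% and 41.4% with DMSO (1.48 ± 0.36, adjusted p = 0.042). In polysomes the shares were 92.0%, 94.0% and 95.1% with cisplatin and 68.2%, 83.1% and 73.9% with DMSO, without overlap (2.25 ± 0.43, adjusted p = 0.052 by edgeR).

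On chromosome 2, the pair of chr2:133038111-133038405 and chr2:133037219-133037583 (minus strand, 892 bases apart) gained upstream, with both ends called as rising relative to the kept peaks. The upstream end had 62, 52 and 88 counts with cisplatin and 13, 18 and 11 with DMSO, and the downstream end 38, 33 and 20 with cisplatin and 37, 23 and 38 with DMSO, in libraries of unequal depth. On that scale the upstream end rose by 3.64 ± 0.40 and the downstream end by 1.11 ± 0.41 (log2, SE). The kept peaks held a lower share of all counts with cisplatin, and a rise relative to all counts was not tested. The ratio rose by 2.34 ± 0.48 (log2, SE, edgeR adjusted p = 0.0029). A second pair on that chromosome, chr2:224831586-224831930 and chr2:224832139-224832435 (plus strand, 505 bases apart), had upstream shares of 78.3%, 78.4% and 81.0% with cisplatin and 49.2%, 44.9% and 54.4% with DMSO. Its ratio rose by 1.98 ± 0.27 (adjusted p = 1.37e-04 by edgeR), with a rise of the upstream end of 1.62 ± 0.30.

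The largest loss of an upstream end with cisplatin was on chromosome 7 (upstream chr7:26231353-26231965, downstream chr7:26229457-26230184, minus strand, 1896 bases apart). The upstream share was 79.1%, 80.4% and 74.8% with cisplatin and 95.9%, 95% and 93.5% with DMSO in H358 cells. The ratio fell by 2.38 ± 0.27 (log2, SE; edgeR adjusted p = 2.86e-05), as the upstream end fell by 1.52 ± 0.22 and the downstream end rose by 0.84 ± 0.30. In A549 cytosol the shares were 86.4%, 77.2% and 74.7% with cisplatin and 92.6%, 91.5% and 91.6% with DMSO, without overlap (adjusted p = 0.056 by edgeR). Oxaliplatin gave 94.4%, 90.8% and 92.8% in H358 cells, which overlapped with DMSO.

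A similar loss was seen on chromosome 12, at chr12:54678214-54679204 and chr12:54680729-54680877 (plus strand, 1673 bases apart). Its upstream share was 69.2%, 69.6% and 70.5% with cisplatin and 91.6%, 91.1% and 93.5% with DMSO, and the ratio fell by 2.33 ± 0.23 (log2, SE; edgeR adjusted p = 9.58e-06). Smaller counts stood behind the pair on chromosome 3, chr3:48730817-48731491 and chr3:48730381-48730617 (minus strand, 436 bases apart), with shares of 50.4%, 33.3% and 55.3% with cisplatin and 77.7%, 82.5% and 80.6% with DMSO (a fall of 2.04 ± 0.33, adjusted p = 4.60e-04 by edgeR). On chromosome 10, chr10:72643257-72643806 and chr10:72642002-72642236 (minus strand, 1255 bases apart) had shares of 92.6%, 79.3% and 86.1% with cisplatin and 96.5%, 96.3% and 95.4% with DMSO (a fall of 1.87 ± 0.38, adjusted p = 0.0026 by edgeR). In all 3 pairs the upstream end was the stronger in every DMSO library.

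A chain of 4 ends on chromosome 20 gave called pairs in both directions through 1 shared end. That end, chr20:2446011-2446478 on the minus strand, had 761, 628 and 644 counts with cisplatin and 493, 693 and 368 with DMSO in H358 cells. It rose by 1.76 ± 0.25 relative to the kept peaks (log2, SE, edgeR adjusted p = 3.79e-05). The pair in which it is upstream (with chr20:2444357-2444548, 1654 bases apart) therefore gained 1.82 ± 0.28 (adjusted p = 2.91e-04), and the pair in which it is downstream (with chr20:2448243-2448410, 2232 bases apart) fell by 2.09 ± 0.26 (adjusted p = 6.48e-05). The other end of each pair did not pass its own test. These 2 calls are 1 event counted in 2 pairs.

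**Figure D3:**
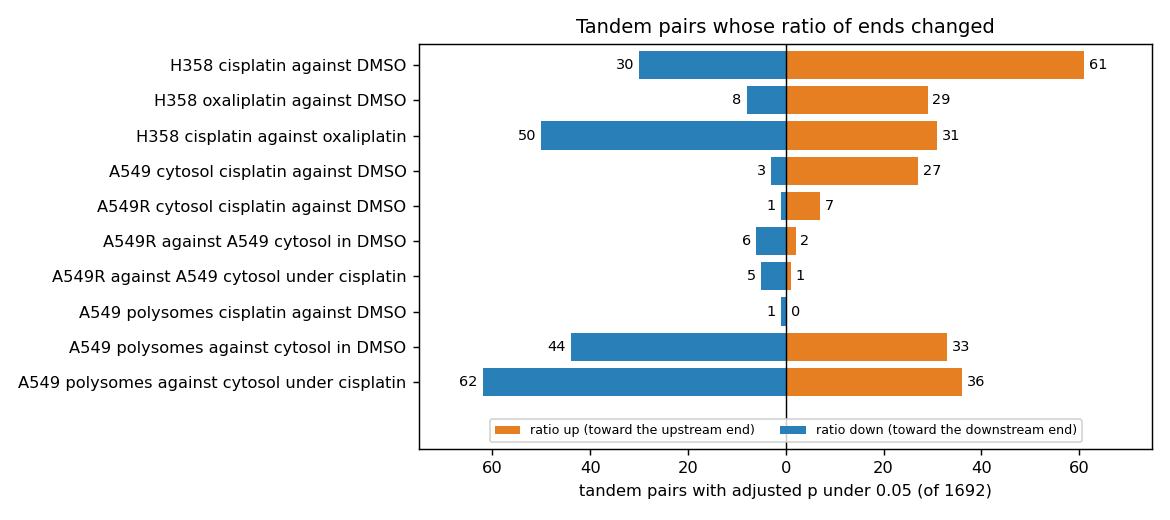
Tandem pairs with an edgeR adjusted p under 0.05 in each comparison, of 1692 tested, with changes toward the upstream end to the right in orange and toward the downstream end to the left in blue. H358 cells with cisplatin had 61 against 30, A549 cytosol with cisplatin 27 against 3, and polysomes against cytosol 33 against 44 in DMSO and 36 against 62 under cisplatin.

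Oxaliplatin, a platinum compound that differs from cisplatin in the ligands bound to the metal, was given to H358 cells at the same dose and shared their DMSO libraries. It changed 37 tandem pairs, 29 toward the upstream end and 8 toward the downstream end (background 5.25%, 2.7% up and 2.55% down). Cisplatin differed from oxaliplatin directly in 81 pairs, 31 up and 50 down (background 10.5%, 4.52% up and 5.95% down). The treatment time of neither drug is given. The median half-width of the 95% interval of the difference between the drugs was 0.79 log2 units over the tandem pairs, not adjusted for the number of tests. Smaller differences of a single pair were thus mostly not detectable. A pair of that width needed a larger difference to pass the adjusted test. Of single tandem ends, 36 rose and 119 fell with oxaliplatin (background 5.79%, 1.33% up and 4.46% down), and 305 were higher and 167 lower with cisplatin than with oxaliplatin (background 18.5%, 10.1% up and 8.42% down). Both comparisons set short lists against long ones. The count for oxaliplatin against DMSO was 13 without oxaliplatin replicate 2, 11 without oxaliplatin replicate 3, 13 without DMSO replicate 1 and 22 without DMSO replicate 2. The count for cisplatin against oxaliplatin was 45 without cisplatin replicate 3, and 48, 53 and 42 without oxaliplatin replicates 1, 2 and 3.

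The largest values of these comparisons came from the chromosome 20 chain. Its shared end had 21, 14 and 29 counts with oxaliplatin and 493, 693 and 368 with DMSO, so that the pair with chr20:2444357-2444548 fell by 4.42 ± 0.29 (log2, SE; edgeR adjusted p = 9.84e-08). This end, however, was built from 1 peak of 72 to 119 bases in all 11 short lists, A549 cytosol included, and covered 211 to 439 bases in the 16 long ones, mostly as 2 peaks. The pair in which it is downstream, and the pair of chr4:106405781-106406416 and chr4:106406451-106407557 on the plus strand (2.90 ± 0.24 with oxaliplatin, adjusted p = 1.13e-06), were the only 2 of the 1692 whose ratios did not overlap between the 11 short and the 16 long lists. A difference in which peaks were listed and a difference in the RNA cannot be told apart for them. The overlap cannot decide this for the other pairs, since each kind of list mixes lines, fractions and drugs. The pair with chr20:2444357-2444548 holds the same shared end, and its ratios did overlap.

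On chromosome 1, the downstream end of chr1:158493921-158494458 and chr1:158494675-158495410 (plus strand, 952 bases apart) covered 97 to 263 bases in short lists and 69 to 568 in long ones, which overlapped. Its upstream share was 96.0%, 96.8% and 97.7% with oxaliplatin and 82.3%, 83.4% and 86.1% with DMSO (2.57 ± 0.50, edgeR adjusted p = 0.0077). The downstream end was also higher in A549R cytosol, with long lists, than in A549 cytosol, with short ones, in DMSO (2.25 ± 0.22). The ratio changed there by -2.46 ± 0.26 (edgeR adjusted p = 2.76e-04). This end was thus lower in the short lists in both comparisons, and the list kind cannot be told apart in either. The pair of chr16:30005291-30006163 and chr16:30004272-30004656 (minus strand, 1019 bases apart) moved downstream, with upstream shares of 10.3%, 8.25% and 10.6% with oxaliplatin and 27%, 25.7% and 24.8% with DMSO (a fall of 1.67 ± 0.30, adjusted p = 0.0035 by edgeR). Cisplatin gave 15.4%, 10.1% and 10.1% in that pair, also below DMSO. When only pairs with 1 peak per end in every library were tested, 553 of them tandem, a setting chosen after seeing the data, 10 tandem pairs were called for oxaliplatin against DMSO (background 6.1% of the 1442 pairs tested) and 17 for cisplatin against oxaliplatin (background 9.15%).

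In A549 cytosol, cisplatin changed 30 tandem pairs, 27 toward the upstream end and 3 toward the downstream end (background 3.89%, 1.9% up and 1.99% down). The distant pairs moved upstream in 54 and downstream in 82. Of all 1692 tandem pairs, 60.05% had a positive change, against 47.2% of the distant pairs. Same-numbered libraries deviated together here, and with the replicate as a block 56 tandem pairs were called, 50 up and 6 down (background 6.42%, 3.14% up and 3.28% down). The count without a block was 6 without cisplatin replicate 2, 8 without cisplatin replicate 3, 12 without DMSO replicate 1 and 9 without DMSO replicate 2. Of the 27 pairs that moved upstream, 10 had a downstream end that fell, 6 had an upstream end that rose, and in 11 neither end was called (single ends: 63 of 3012 rose and 115 fell, background 7.2%, 3.38% up and 3.82% down). With the block 109 ends rose and 208 fell (background 12.3%, 5.59% up and 6.72% down).

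The leading pair of A549 cytosol lay on chromosome 5 (upstream chr5:70952603-70953047, downstream chr5:70954172-70954538, plus strand, 1491 bases apart). Its upstream end had 29, 39 and 26 counts with cisplatin and 10, 15 and 5 with DMSO, beside 78, 118 and 55 downstream counts with cisplatin and 136, 144 and 57 with DMSO. The upstream share was 27.1%, 24.8% and 32.1% with cisplatin and 6.85%, 9.43% and 8.06% with DMSO (2.09 ± 0.30, edgeR adjusted p = 0.0017). In A549R cytosol it was 39.4%, 37.3% and 34.4% with cisplatin and 18.9%, 21.1% and 26% with DMSO (1.12 ± 0.28, adjusted p = 0.046 by edgeR). The DMSO level itself was higher in A549R than in A549 (1.60 ± 0.32, adjusted p = 0.028 by edgeR), where the list kind cannot be told apart from the line. Neither end passed its own test in that comparison (edgeR adjusted p = 0.059 upstream and 0.44 downstream). The 2 cisplatin responses did not pass a test of their difference (-0.97 ± 0.41, adjusted p = 1.00).

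The next pairs of A549 cytosol also moved toward the upstream end. At chr21:48055523-48055731 and chr21:48056276-48056467 (plus strand, 736 bases apart) the upstream share was 96.4%, 96.3% and 95.6% with cisplatin and 88.0%, 89.2% and 78.1% with DMSO (2.05 ± 0.43, edgeR adjusted p = 0.013). At chr1:155583857-155584359 and chr1:155584360-155584835 (plus strand), which abut each other, it was 77.1%, 80.8% and 87.1% with cisplatin and 57.6%, 53.4% and 63.1% with DMSO (1.69 ± 0.29, adjusted p = 0.0041 by edgeR). At chr6:43147282-43147735 and chr6:43148750-43149247 (plus strand, 1512 bases apart) it was 66.7%, 58.2% and 64.8% with cisplatin and 33.3%, 30.6% and 38.5% with DMSO (1.69 ± 0.34, adjusted p = 0.011 by edgeR). In this last pair the stronger end switched, and in H358 cells its shares were 50.8%, 60.6% and 55.0% with cisplatin and 27.6%, 24.2% and 31.7% with DMSO.

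A pair on chromosome 3 went the other way in every A549 setting (upstream chr3:49396559-49397823, downstream chr3:49394597-49395214, minus strand, 1962 bases apart). In A549R cytosol its upstream share was 33.2%, 27.5% and 46.4% with cisplatin and 71.3%, 66.5% and 67.0% with DMSO. In polysomes it was 45.1%, 53.0% and 33.5% with cisplatin and 70.6%, 72.9% and 80.7% with DMSO, and in A549 cytosol 30.0%, 29.8% and 17.6% with cisplatin and 58.4%, 61.4% and 54.5% with DMSO. By the group means the downstream end was the stronger with cisplatin and the upstream end with DMSO. The ratio fell by 1.98 ± 0.32 in A549R cytosol (log2, SE; edgeR adjusted p = 0.0047), by 1.95 ± 0.34 in polysomes (adjusted p = 0.032) and by 2.03 ± 0.32 in A549 cytosol (adjusted p = 0.0025). The downstream end rose by 1.64 ± 0.25, 1.76 ± 0.32 and 1.70 ± 0.25 in those 3 settings, and the upstream end was not called in any. In H358 cells the shares were 27.4%, 21.5% and 17% with cisplatin and 33.5%, 32.4% and 20.4% with DMSO, which overlapped (a change of -0.52 ± 0.29, adjusted p = 0.28 by edgeR).

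**Figure D4:**
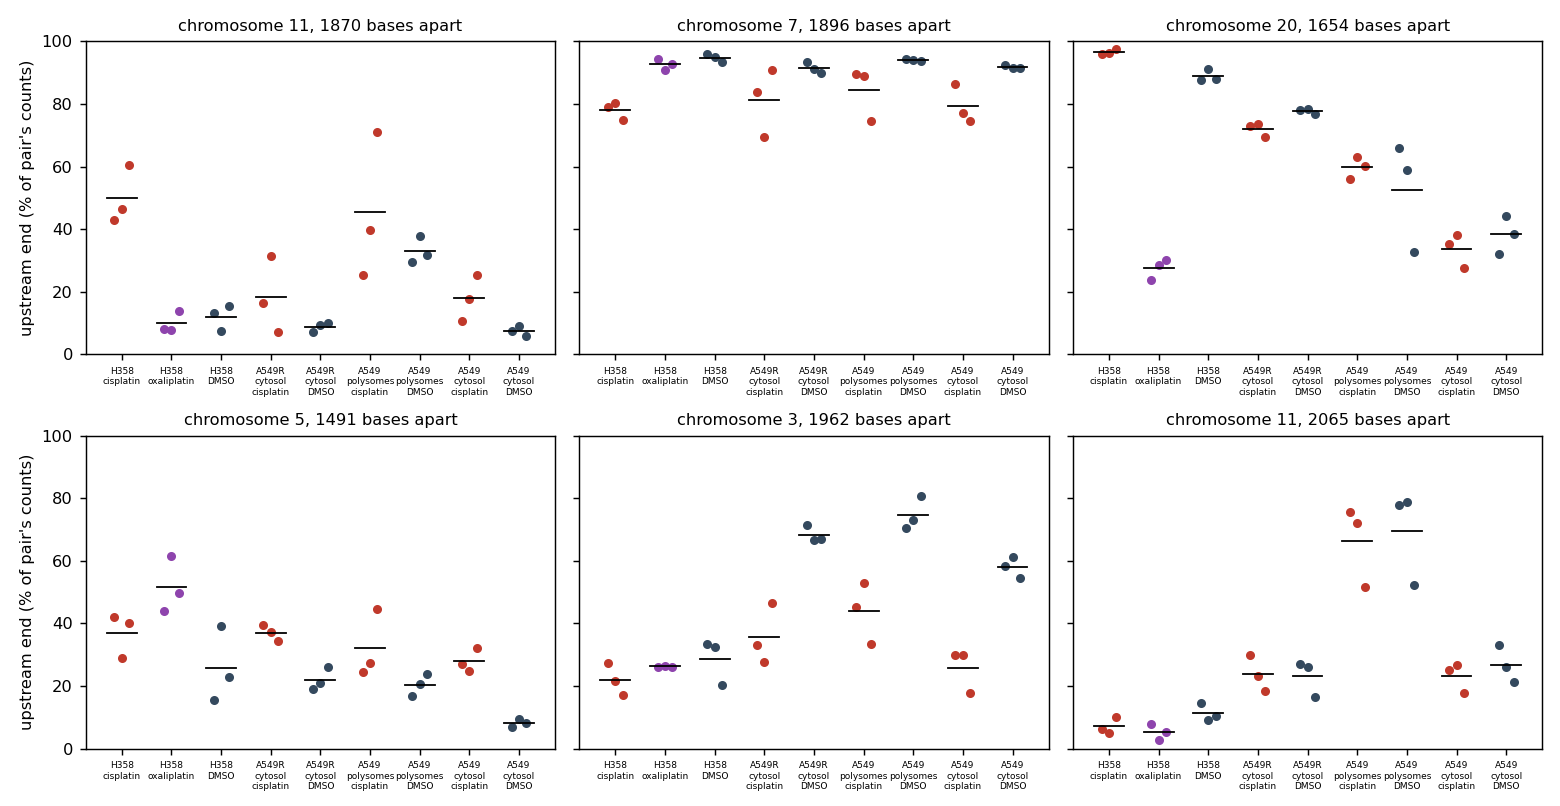
Share of the pair's counts at the upstream end (percent) in each library (points) and the group mean (bars) for 6 tandem pairs that lead a comparison, with cisplatin in red, oxaliplatin in purple and DMSO in dark grey. The chromosome 11 pair 1870 bases apart shows 42.8% to 60.5% with cisplatin in H358 cells against 7.56% to 15.3% with DMSO, and the chromosome 3 pair is lower with cisplatin than with DMSO in all 3 A549 settings.

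In A549R cytosol, cisplatin changed 8 tandem pairs, 7 up and 1 down (background 2.3%, 1.03% up and 1.27% down). Of single tandem ends, 43 rose and 62 fell (background 4.85%, 2.43% up and 2.42% down). The count of pairs ranged from 1 to 16 when single libraries were left out, with 1 without A549R cisplatin replicate 1, cisplatin replicate 2 or DMSO replicate 1, 2 without DMSO replicate 2, and 16 without cisplatin replicate 3. It was also 3 without A549 cisplatin replicate 2 and 5 without A549 DMSO replicate 2, since both lines were fitted together. Beside the chromosome 3, 5 and 14 pairs above, the pair of chr3:53259645-53259956 and chr3:53258682-53259306 (minus strand, 963 bases apart) moved upstream. Its downstream end had 131, 81 and 168 counts with cisplatin and 476, 359 and 137 with DMSO, and the upstream share was 97.6%, 97.7% and 97.1% with cisplatin and 95.1%, 95.2% and 92.9% with DMSO (1.14 ± 0.24, edgeR adjusted p = 0.020).

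In polysomes, cisplatin changed 1 tandem pair, the one on chromosome 3 (background 0.844%, 0.375% up and 0.469% down). Of single tandem ends, 8 rose and 2 fell (background 1.02%, 0.706% up and 0.313% down). The pair was not called without cisplatin replicate 1 or 3, nor without DMSO replicate 1, 2 or 3. With the replicate as a block, in which same-numbered libraries deviated together, 47 tandem pairs were called, 40 up and 7 down (background 7.43%, 3.63% up and 3.8% down). The block turned the direction of the single ends, of which 92 rose and 155 fell (background 10.0%, 4.87% up and 5.17% down), and DESeq2 without a block also had more falling ends, with 33 up and 51 down.

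The cisplatin responses were then set side by side between lines, which share no libraries. Over all 1692 tandem pairs the called share was 5.38% in H358 cells with cisplatin and 2.19% with oxaliplatin. It was 1.77% in A549 cytosol and 0.473% in A549R cytosol with cisplatin. Of the 91 pairs called in H358 cells and the 30 called in A549 cytosol, 8 were called in both. That is 8.79% of the H358 calls and 26.7% of the A549 calls, and all 8 moved the same way (6 up and 2 down). Of the 61 pairs that moved upstream in H358 cells, 55 had a positive change in A549 cytosol. Of the 30 that moved downstream, 16 had a negative one. In A549 cytosol 60.05% of all tandem pairs had a positive change. Over all 1692 pairs, 58.4% had the same sign and the changes had a Pearson correlation of 0.35 across pairs, which share libraries and, in chains, ends. Sharing with A549 cytosol was not limited to cisplatin in H358 cells. Of the 37 pairs called there with oxaliplatin against DMSO, 6 were also called in A549 cytosol with cisplatin, all 6 up. That is 16.2% of the oxaliplatin calls and 20% of the A549 calls. Between A549 and A549R cytosol 5 pairs were called in both, 16.7% of the 30 and 62.5% of the 8. All 27 pairs that moved upstream in A549 cytosol had a positive change in polysomes, where 55.6% of all 1692 tandem pairs had one, and 60.2% of all tandem pairs had the same sign in both.

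**Figure D5:**
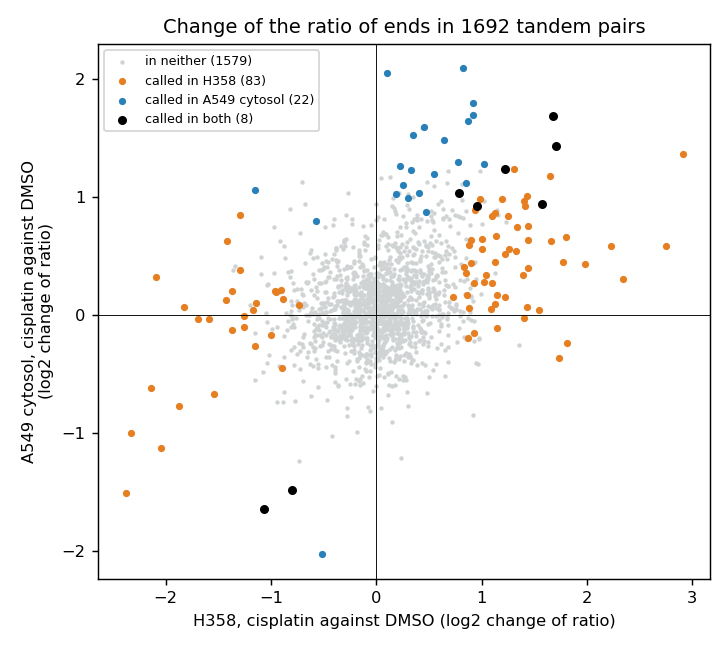
Log2 change of the ratio of upstream to downstream end with cisplatin against DMSO for 1692 tandem pairs, in H358 cells (horizontal) and A549 cytosol (vertical), coloured by where the pair was called. The 8 pairs called in both lie in the upper right (6) or the lower left (2), and most pairs called in 1 line lie nearer to 0 in the other.

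The next comparison asked whether the resistant line differs from A549 at these pairs. A549R against A549 cytosol gave 8 changed tandem pairs in DMSO, 2 up and 6 down (background 0.609%, 0.352% up and 0.258% down), and 6 under cisplatin, 1 up and 5 down (background 0.562%, 0.281% up and 0.281% down). All 6 of the second list were in the first with the same direction. Of single tandem ends, 17 were higher and 45 lower in A549R in DMSO (background 2.64%, 1.22% up and 1.42% down), and 17 higher and 26 lower under cisplatin (background 1.86%, 0.959% up and 0.898% down). Same-numbered libraries deviated together under cisplatin, and with the replicate as a block 40 ends were higher and 63 lower there (background 5.06%, 2.63% up and 2.42% down). The list kind separates the lines fully, and both chromosome 20 pairs above were among the called ones in both. With pairs left out whose number of own peaks did not overlap between the lines, a setting chosen after seeing the data, 4 calls were left in DMSO and 2 under cisplatin. With only pairs of 1 peak per end in every library, also chosen after seeing the data, edgeR called 0 of 553 tandem pairs in DMSO (background 0.139%) and 0 of 553 under cisplatin (background 0.0%), with 21 and 14 at an unadjusted p under 0.05. In DMSO the count was 5 without A549 replicate 1 or 2 and without A549R replicate 1 or 2.

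The cisplatin response of A549R minus that of A549 passed the test in 0 of 1692 pairs (background 0.0%), with 45 at an unadjusted p under 0.05 by edgeR. The median half-width of the 95% interval of that difference was 1.00 log2 units, not adjusted for the number of tests. Smaller differences were thus mostly not detectable in a single pair. A pair of that width needed a larger difference than 1.00 to pass the adjusted test. The same test between polysomes and cytosol of A549 gave 0 pairs (background 0.0%), 35 at an unadjusted p under 0.05, and a median half-width of 0.96.

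Heavy polysomes against cytosol of A549 cells asked which end of a pair is more common among heavily loaded mRNA. In DMSO 77 tandem pairs differed, 33 toward the upstream and 44 toward the downstream end in polysomes (background 19.9%, 10.7% up and 9.16% down). Under cisplatin 98 differed, 36 toward the upstream and 62 toward the downstream end (background 21.6%, 11.7% up and 9.91% down). Of single tandem ends, 729 were higher and 720 lower in polysomes in DMSO (background 51.2%, 26.6% up and 24.6% down), and 822 higher and 794 lower under cisplatin (background 54.8%, 28.7% up and 26.2% down). Over all tandem pairs 35.8% had a positive difference in DMSO and 33.5% under cisplatin, against 45.3% and 45.4% of distant pairs. The per-library median was -0.36 ± 0.02 in polysomes and -0.20 ± 0.04 in cytosol under cisplatin, with all 3 polysome libraries below all 3 cytosol libraries (exact permutation p = 0.10, the smallest possible, and 0.50 after adjustment over 10 comparisons). In DMSO it was -0.40 ± 0.08 in polysomes and -0.31 ± 0.07 in cytosol, with overlap (exact permutation p = 0.30).

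The lists from DMSO and cisplatin, which share no libraries, had 40 pairs in common, 22 up and 18 down in both. That is 51.9% of the DMSO list and 40.8% of the cisplatin list. Of all tandem pairs 4.55% were called in DMSO and 5.79% under cisplatin. With only the short-list polysome libraries, a setting chosen after seeing the data that matches the cytosol in list kind but leaves 1 library per treatment, 44 tandem pairs were called in DMSO, 20 up and 24 down (background 11.6%, 6.77% up and 4.8% down), and 49 under cisplatin, 23 up and 26 down (background 14.1%, 7.71% up and 6.42% down). The lone library was assumed to vary like the other groups. The split by direction depended on single libraries. In DMSO it was 29 up and 21 down without cytosol replicate 2, and 30 up and 26 down without polysome replicate 2, so that more pairs were called toward the upstream end. Under cisplatin it was 32 up and 33 down, 26 up and 31 down, and 29 up and 31 down without cytosol replicates 1, 2 and 3, and 24 up and 28 down without polysome replicate 2.

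The pair of chr11:6633992-6634522 and chr11:6631927-6632249 (minus strand, 2065 bases apart) was the most shifted toward its upstream end in polysomes in DMSO. The upstream share was 77.9%, 78.7% and 52.4% in polysomes and 33.0%, 25.9% and 21.4% in cytosol in DMSO, and 75.5%, 72.0% and 51.8% in polysomes and 25.3%, 26.7% and 17.6% in cytosol under cisplatin. The ratio differed by 2.76 ± 0.48 in DMSO and by 2.76 ± 0.48 under cisplatin (log2, SE; edgeR adjusted p = 7.21e-04 and 6.25e-04). The third polysome library, which has the short list, was the lowest of its group in both treatments. The pair's upstream end was higher in polysomes and its downstream end lower.

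In other pairs the upstream end was the stronger already in cytosol. At chr14:68143495-68145087 and chr14:68141086-68141386 (minus strand, 2409 bases apart) the upstream share was 99.0%, 98.9% and 97.2% in polysomes and 91.7%, 91.2% and 90.5% in cytosol in DMSO (2.68 ± 0.31, edgeR adjusted p = 2.66e-05). At chr12:6975164-6975803 and chr12:6976692-6976901 (plus strand, 1098 bases apart) it was 98.3%, 98.4% and 97.5% in polysomes and 89.3%, 89.8% and 84.6% in cytosol under cisplatin (2.79 ± 0.28, adjusted p = 6.25e-06 by edgeR). By contrast, at chr1:154242998-154243990 and chr1:154245744-154246056 (plus strand, 2066 bases apart) it was 72.7%, 67.7% and 57.1% in polysomes and 25.7%, 19.6% and 17.9% in cytosol under cisplatin (2.85 ± 0.49, adjusted p = 6.31e-04 by edgeR), and the stronger end switched.

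The strongest shift toward a downstream end in polysomes was on chromosome 2 (upstream chr2:62114951-62115436, downstream chr2:62112149-62112300, minus strand, 2802 bases apart). The upstream share was 11.9%, 12.7% and 15.5% in polysomes and 57.1%, 56.8% and 48.5% in cytosol in DMSO, and 24.6%, 25.7% and 17.8% in polysomes and 58.7%, 66.1% and 65.7% in cytosol under cisplatin. The ratio was lower by 2.95 ± 0.31 in DMSO and by 2.56 ± 0.29 under cisplatin (log2 changes of -2.95 and -2.56, SE; edgeR adjusted p = 1.32e-05 and 1.56e-05). At chr14:102549868-102550053 and chr14:102546929-102548161 (minus strand, 2939 bases apart), in a chain of 6 ends, the upstream end took 0.262%, 0.315% and 0.357% in polysomes and 1.12%, 1.23% and 1.48% in cytosol under cisplatin (a fall of 2.03 ± 0.20, adjusted p = 6.25e-06 by edgeR). The upstream end was lower and the downstream end higher in polysomes in both pairs.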

How the data were processed

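The 3′-seq libraries were made from poly(A)+ RNA with anchored oligo-dT, per the labels' protocols. The authors deposited 1 peak list per library, with the read count of each peak. Bowtie2 2.2.5, bedtools 2.17.0 and SAMtools 1.1 are listed in the submitters' processing notes together with the build mm9, while the samples are human and the positions reach 249237867 on chromosome 1, which fits hg19. The smallest listed count was 5. Peaks overlapping by 1 base on a strand were merged and their counts summed. The pairs and comparisons were chosen with earlier results of these data known.

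Pair ratios were tested with edgeR 4.0.16 (quasi-likelihood, R 4.3.3) on the 2 counts of a pair in each library, with a term per library and a term per group on the upstream count, over 4267 neighbouring pairs. H358, the 2 cytosols, the polysomes, and A549 cytosol with polysomes were fitted apart. Single ends were tested in the same way over 9910 ends with TMM scaling. Errors are fitted SEs; p-values were adjusted by Benjamini-Hochberg. Named pairs are up to 5 called pairs with the largest change in each direction (3 for line and fraction comparisons), without overlap between groups and with a mean count of at least 20 at both ends; chromosome 8 pairs and some others are given only in the counts. Alternatives were DESeq2 1.42.0, limma 3.58.1 on log2 ratios (pseudocount 0.5), other filters, left-out libraries and a replicate block. The numbers were taken as pairs where every same-numbered correlation of deviations passed 0.1, as it did for cisplatin against DMSO in A549 cytosol (0.22, 0.31 and 0.21) and polysomes (0.28, 0.22 and 0.27), and for A549R against A549 under cisplatin (0.28, 0.32 and 0.15). For cisplatin against DMSO these correlations were 0.21, 0.08 and 0.29 in H358 cells and 0.16, 0.07 and 0.13 in A549R cytosol. Each cisplatin library correlated best with the DMSO library of its number in both, but the numbers were not taken as pairs there. The fits were also run on simulated counts with independent pairs and 1 fixed dispersion. Those counts had no shared ends and no 2 kinds of list, so they cannot show how the fits behave under these.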

Additional observations from a re-analysis of the deposited data

Results flagged for a closer look

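Some named pairs moved with cisplatin in opposite directions in 2 settings, with every cisplatin library on 1 side of every DMSO library in each. The difference itself was not tested between H358 and A549 cells. The values are differences of group mean log2 ratios, cisplatin minus DMSO. Such a separation can arise by chance where many named pairs and settings are looked over. At chr1:2334467-2335403 and chr1:2336527-2336889 the difference was -1.45 in H358 cells, 0.62 in A549 cytosol and 0.80 in A549 polysomes. In the chromosome 20 chain, the pair of chr20:2446011-2446478 and chr20:2444357-2444548 had 1.85 in H358 cells and -0.45 in A549R cytosol, and the pair of chr20:2448243-2448410 and chr20:2446011-2446478 had -2.09 in H358 cells and 0.36 in A549 cytosol. These 2 pairs share 1 end. At chr3:53259645-53259956 and chr3:53258682-53259306 the difference was -0.31 in H358 cells, 0.63 in A549 cytosol and 1.16 in A549R cytosol. The smallest called change was 0.79 toward the upstream end in A549 cytosol and 0.73 toward the downstream end in H358 cells. The values of 0.62, 0.36, 0.63 and -0.31 lie below these in size. The values of 0.80 in polysomes and -0.45 in A549R cytosol were not called.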

How the results depend on the processing

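The 66 named values kept their direction under every alternative run. Under those runs 960 of their values kept their side of the threshold and 103 lost it. They were chosen as the largest called changes without overlap between groups in these same libraries, so their kept direction is not a result. Counts of called tandem pairs and of called single ends moved. With 1 peak per end in every library (added after seeing the data), fewer tandem pairs (553) were tested. The counts were then 12 for H358 cisplatin, 10 for oxaliplatin, 17 for cisplatin against oxaliplatin, 6 for A549 cytosol and 0 for A549R cytosol. They were 0 and 0 for A549R against A549, and 18 and 21 for polysomes against cytosol (DMSO, cisplatin). Of all 1442 pairs tested there, 170 were called for H358 cisplatin, 48 for A549 cytosol and 22 for A549R cytosol. For polysomes against cytosol 241 and 271 were called. With the replicate block they were 127 for H358 cisplatin, 78 for oxaliplatin, 115 for cisplatin against oxaliplatin, 56 for A549 cytosol and 21 for A549R cytosol. They were 11 and 8 for A549R against A549, 47 for polysomes, and 133 and 155 for polysomes against cytosol. The block ended no comparison's calls, and where numbers did not pair the libraries these counts rest on a shared number alone. limma gave 12 for oxaliplatin and 0 for polysomes, DESeq2 14 for A549R cytosol and 15 for polysomes. A fit of all 27 libraries gave 5 and 3 for A549R against A549 and 28 for polysomes. Short-list polysomes gave 44 and 49, and pairs with overlapping numbers of own peaks 4 and 2 for A549R against A549. The cause was not tested.

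Leaving out 1 library gave 58 to 107 (H358 cisplatin), 11 to 47 (oxaliplatin), 42 to 86 (cisplatin against oxaliplatin), 6 to 39 (A549 cytosol), 1 to 16 (A549R), 5 to 9 and 5 to 7 (A549R against A549), 0 to 1 (polysomes), and 50 to 80 and 52 to 105 (polysomes against cytosol). Called single ends were 447 to 773, 55 to 279, 267 to 524, 42 to 231, 26 to 184, 14 to 105, 12 to 54, 1 to 10, 1164 to 1583 and 1347 to 1678 in that order. With the block they were 544 (oxaliplatin), 804 (cisplatin against oxaliplatin), 317 (A549 cytosol), 245 (A549R), 178 and 103 (A549R against A549) and 247 (polysomes, 92 up and 155 down); DESeq2 gave 193, 146, 90 and 84 for the last 4 comparisons of that list.

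Library medians near 0 changed sign. Oxaliplatin minus DMSO was 0.000314 with a mean count of at least 20 and 0.0195 with no peak between the ends, and -0.0156 to 0.0155 without 1 library. A549R minus A549 in DMSO was -0.00927 up to 1000 bases and -0.0146 with no peak between, and -0.0298 to 0.0445 without 1 library. Cisplatin minus DMSO in A549R was -0.0177 to 0.0789, and -0.00849 to 0.0605 relative to distant pairs. Low counts (5 or more per end) limit single pairs, and 0 counts are absent by choice.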
